A study of Mus musculus with 13 samples.

Results

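Kv1 channels are the Shaker family of voltage-gated potassium channels. Those described here were the alpha subunit genes Kcna1, Kcna2 and Kcna6 and the beta subunit genes Kcnab1 and Kcnab2, which made up 5 of the 50508 genes listed for single proprioceptors. They were taken by name, but with earlier results of these data known, and each had UMIs at every stage. The other 6 genes of the family were close to absent from the counts and are described apart. Alpha subunits assemble as tetramers that form the pore, in mixed combinations, and open near the spike threshold, so that they limit repetitive firing. Beta subunits are cytoplasmic partners that help channels to reach the axon and, for some of them, speed inactivation. In myelinated axons Kv1 channels lie under the myelin beside the node of Ranvier, held there by the adhesion molecules Cntnap2 and Cntn2.

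The neurons were sensory neurons of mouse dorsal root ganglia, sorted by fluorescence into 96-well plates and sequenced 1 by 1 from the 3′ end with unique molecular identifiers (UMIs). Adult (at least P56), P12 and P0 neurons came from mice that were all PV:Cre+/-;Rx3:Flp+/-;Ai65+/-, in which tdTomato stays on in any cell that has expressed both parvalbumin and Runx3. E14.5 neurons came from TrkC:tdTomato embryos, where the reporter marks cells with TrkC, so at E14.5 the stage and the reporter cannot be told apart. No treatment was given, and the labels count 6 adult, 4 P12, 6 P0 and 2 E14.5 animals. The quality filter of the authors kept 208 adult, 154 P12, 55 P0 and 169 E14.5 neurons on 5, 4, 2 and 2 plates. Plates were taken as the replicates, although the study sampled adult neurons in fewer experiments than there are adult plates. Which adult plates shared an experiment was not stated. Which animals supplied which plate was not stated, so p-values measure the spread between plates, which may be technical. Cluster names are those of the deposited annotation, which was made from these same neurons: a difference between clusters is therefore no independent evidence, and its p-value says only how evenly plates repeated it.

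Each plate held between 680212 and 2387288 UMIs in kept neurons, and the median neuron had 10604 UMIs at E14.5, 41058 at P0, 24462.5 at P12 and 36926.5 in the adult. The same 96 well barcodes were used on all 13 plates. All 5 proprioceptor markers checked (Pvalb, Runx3, Ntrk3, Etv1 and Whrn) had UMIs at every stage. Their levels summed to 1688 counts per 1000000 UMIs of a neuron (CPM) at E14.5 and between 3041 and 5023 CPM later. The summed level of 8 satellite glia and Schwann cell genes ranged from 4.05 to 22.6 CPM on the E14.5 plates, from 490 to 631 CPM at P0, from 166 to 524 CPM at P12 and from 293 to 814 CPM in the adult, so it differed between E14.5 and the later stages as several Kv1 genes did; its part in those differences was not tested. Nociceptor genes summed to at most 17.8 CPM on any plate.

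A conserved stretch of the pore is shown for the 3 alpha subunits, to show how similar these genes are there. Counts came from the 3′ end, so this stretch does not show how far the counts of these genes can be told apart. In the reference coding sequences, a stretch of 48 bases over the pore helix and the selectivity filter, the part of the protein that picks potassium from other ions, had 33 bases shared by Kcna1, Kcna2 and Kcna6 and 15 that differed. They are shown 5′ to 3′ on the coding strand, with the 15 differing bases in capitals.
Kcna1: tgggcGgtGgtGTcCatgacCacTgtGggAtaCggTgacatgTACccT
Kcna2: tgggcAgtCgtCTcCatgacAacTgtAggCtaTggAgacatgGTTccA
Kcna6: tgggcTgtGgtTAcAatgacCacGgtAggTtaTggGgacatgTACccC

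Kcna1 and Kcna6 shared 38 of these 48 bases, Kcna1 and Kcna2 shared 36, and Kcna2 and Kcna6 shared 35. The filter begins at codon 372 of 495 in Kcna1, codon 374 of 499 in Kcna2 and codon 422 of 529 in Kcna6. Over whole transcripts, the longest run of bases shared exactly by any pair of the 5 genes was 31 (Kcna1 and Kcna6), shorter than the 58 bases of the read that was aligned. In the GRCm38 build with GENCODE gene models, Kcna1 lies on the minus strand at chr6:126640397-126646384, and Kcna6 lies 61944 bases away on the same strand at chr6:126708329-126740674. Kcna2 is at chr3:107101146-107115005 on the plus strand, Kcnab1 at chr3:65109384-65378223 on the plus strand, and Kcnab2 at chr4:152390742-152477871 on the minus strand. A non-coding gene on the opposite strand, Gm26673, overlaps an exon of Kcna6. Kcnab1 also overlaps 3 other genes and Kcnab2 overlaps 3, while Kcna1 and Kcna2 overlap none.

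For Kcna2, Kcna6 and Kcnab2, whose levels differed between stages, the 250 bases before their annotated starts are shown as RefSeq gives them for GRCm38.p6, 5′ to 3′ on the strand of the gene, with CG pairs in capitals. Kcna1 differed between stages too, but the promoter reference used here held no entry for it. Kcna2 is the plus strand of chr3:107101317-107101566, which lies inside the span of the longer GENCODE model, Kcna6 the minus strand of chr6:126740675-126740924, and Kcnab2 the minus strand of chr4:152477550-152477799, the outermost of its 3 listed starts. The Kcnab2 window too lies inside the GENCODE span of its own gene (chr4:152390742-152477871), and it lies inside the protein-coding gene Nphp4 on the opposite strand (chr4:152476706-152563183). The Kcna6 window lies inside the antisense gene Gm26673 (chr6:126718684-126741601).
Kcna2: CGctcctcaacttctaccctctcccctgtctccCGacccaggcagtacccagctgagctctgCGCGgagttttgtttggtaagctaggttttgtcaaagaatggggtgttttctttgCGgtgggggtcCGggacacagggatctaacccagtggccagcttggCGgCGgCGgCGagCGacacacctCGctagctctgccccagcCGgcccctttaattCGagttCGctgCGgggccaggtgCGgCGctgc
Kcna6: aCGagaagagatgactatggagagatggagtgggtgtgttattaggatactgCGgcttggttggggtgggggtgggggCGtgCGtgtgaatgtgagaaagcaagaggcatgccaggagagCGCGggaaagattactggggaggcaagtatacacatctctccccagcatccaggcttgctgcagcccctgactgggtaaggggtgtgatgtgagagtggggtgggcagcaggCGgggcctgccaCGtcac
Kcnab2: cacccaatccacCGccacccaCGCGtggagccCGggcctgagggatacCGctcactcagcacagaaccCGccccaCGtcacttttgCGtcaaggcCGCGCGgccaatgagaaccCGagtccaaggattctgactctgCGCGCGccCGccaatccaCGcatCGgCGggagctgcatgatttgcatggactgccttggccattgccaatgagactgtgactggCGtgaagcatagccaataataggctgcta

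The Kcnab2 window held 20 CG pairs, the Kcna2 window 18 and the Kcna6 window 8, where the median of 32851 promoters of the same length was 6. At least as many pairs as in Kcnab2 were found in 17.9% of promoters, as many as in Kcna2 in 21.7%, and as many as in Kcna6 in 43%. Both strands were searched for the TATA box (TATAAA, in 12.4% of all promoters), the GC box bound by Sp1 (GGGCGG, in 32.7%), the CCAAT box (in 33.8%), the core bound by Runx factors (TGTGGT, in 14%) and the core bound by Ets factors such as Etv1 (CCGGAA, in 12%). None of these was in the Kcna2 or the Kcna6 window. The Kcnab2 window held CCAAT 5 times, as many as in 0.213% of promoters, and GGGCGG once. A match is a description of letters. Counts from the 3′ end do not show which start a transcript came from.

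Across stages, Kcna1, Kcna2 and Kcnab2 were higher at P12 than at P0, and Kcna6 was lower in the adult than at P12. Levels were taken as CPM averaged over the neurons of a plate. A UMI stands for 1 molecule caught at its 3′ end, so levels of different genes could be compared per molecule. Stages were compared on the UMIs summed over each plate with edgeR's quasi-likelihood F-test and Benjamini-Hochberg adjustment over 11939 genes, and log2 fold changes are given with their standard errors. Successive comparisons share the plates of the stage between them.

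Kcna1, whose subunit is dominantly mutated in human episodic ataxia, stood at 36.3 and 37.0 CPM on the 2 E14.5 plates and at 35.0 and 36.2 CPM on the 2 P0 plates. At P12 it stood at 203, 201, 97.7 and 89.5 CPM, and in the adult at 207, 197, 189, 200.1 and 173 CPM. Every P12 and adult plate lay above every earlier plate, and the P12 plates fell into a high and a low pair. Between P0 and P12 the log2 fold change was 2.18 ± 0.28 (adjusted p = 1.31e-04), while from E14.5 to P0 it was -0.03 ± 0.32 (adjusted p = 0.964) and from P12 to the adult 0.49 ± 0.19 (adjusted p = 0.0966).

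Kcna2, the partner of Kcna1 in the channels beside the nodes of large axons, was at 17.9 and 15.3 CPM at E14.5 and at 46.2 and 57.4 CPM at P0. At P12 it was at 369, 335, 165 and 141 CPM, and in the adult at 472, 506, 330.1, 339 and 359 CPM, so the higher P12 pair overlapped the adult range. Kcna2 rose at each of the first 2 steps, by 1.39 ± 0.42 from E14.5 to P0 (adjusted p = 0.0244) and by 2.46 ± 0.35 from P0 to P12 (adjusted p = 2.35e-04), on the log2 scale. The last step, 0.71 ± 0.23, missed the threshold (adjusted p = 0.0518) but passed it with adult clusters 1 to 5 alone (0.74, adjusted p = 0.0418). The first step depended on the neurons taken: in E14.5 clusters 1 and 2 alone, which carried most proprioceptor marker UMIs, it was 3.25 (adjusted p = 0.00120), and without any 1 of the 4 plates, or with each neuron thinned to 7000 UMIs, it was not called (adjusted p between 0.0593 and 0.122).

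Kcna6 differed in the other direction after birth. Its levels were 63.5 and 66.4 CPM at E14.5 and 109.6 and 114 CPM at P0, where it had the highest level of the 3 alpha genes per molecule on each plate of both stages. From E14.5 to P0 the log2 difference of 0.85 ± 0.46 was not called (adjusted p = 0.188). Its levels were 36.2, 37.4, 67.1 and 78.1 CPM at P12 and 32.2, 22.5, 22.2, 15.1 and 42.3 CPM in the adult. Every P12 plate lay below both P0 plates, and 1 adult plate, replicate 5, reached above the 2 lower P12 plates. These adult levels include 42 neurons that the annotation set apart from the 5 clusters, which carried 69 of the 159 adult Kcna6 UMIs and 17 of the 25 on replicate 5. Without them Kcna6 stood at 28.0, 22.5, 10.6, 8.57 and 18.4 CPM, and every adult plate lay below every P12 plate. The log2 difference was -1.13 ± 0.39 from P0 to P12, just short of the threshold (adjusted p = 0.0564) but past it without P12 replicate 4 (-1.40, adjusted p = 0.0253), and Kcna6 fell by 1.40 ± 0.34 from P12 to the adult (adjusted p = 0.0138), or by 1.99 ± 0.34 with the 5 adult clusters alone (adjusted p = 0.00191). Without P12 replicate 3 or replicate 4 the second call was lost, at -1.22 (adjusted p = 0.0628) and -1.12 (adjusted p = 0.0610).

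The strand used in counting was not given in the sources used here, so reads of Kcna6 and of the overlapping Gm26673 cannot be told apart if strand was not used. Gm26673 was listed separately and was named after its values were seen. In kept neurons it had 2 UMIs at E14.5, 0 at P0, 83 at P12 and 166 in the adult, beside 115, 258, 240 and 159 UMIs of Kcna6.

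**Figure D1:**
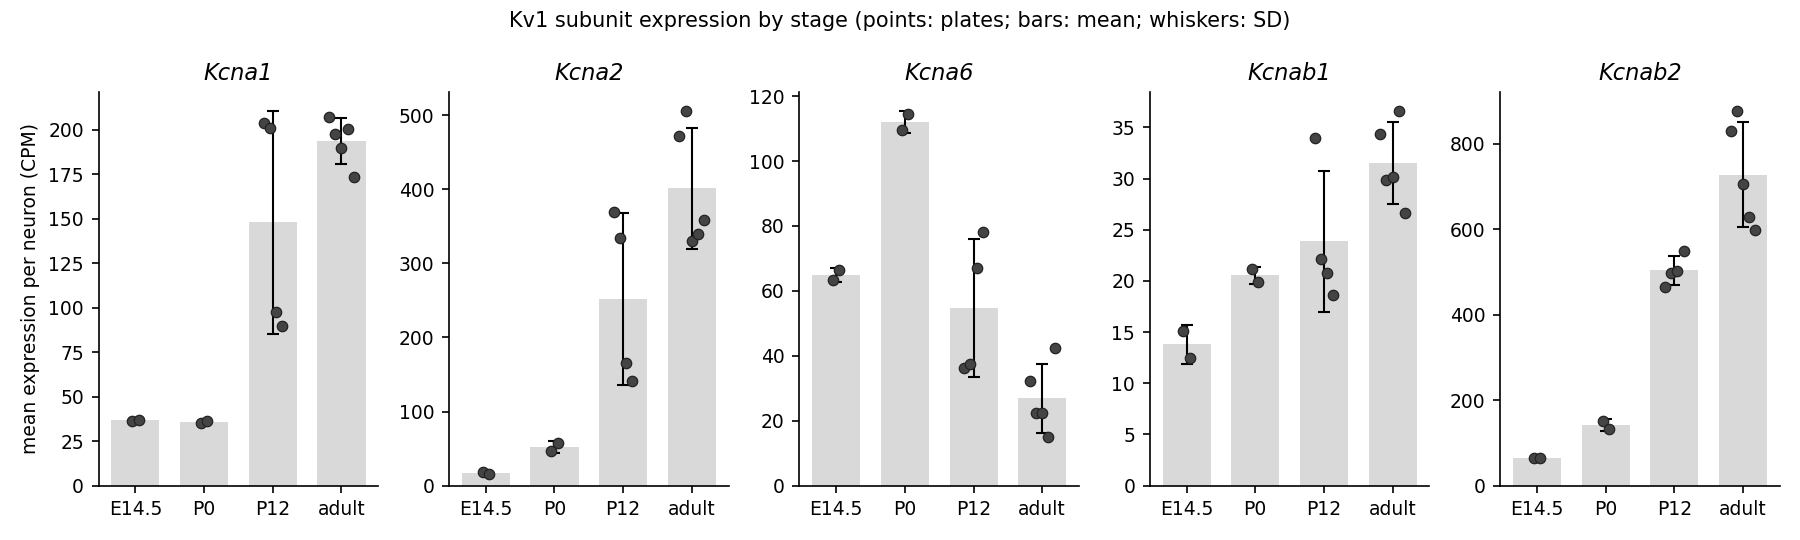
Mean level of each of the 5 Kv1 genes in CPM (vertical axis) at E14.5, P0, P12 and in the adult (horizontal axis), with 1 point for each plate, a bar from 0 to the mean of the plates and whiskers of 1 SD. Kcna1 and Kcna2 stand at or below 57.4 CPM at E14.5 and P0 and near 193 and 401 CPM in the adult, Kcna6 has its highest values at P0, and Kcnab2 lies above Kcnab1 at each stage.

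Among the beta subunits, Kcnab2, a widely expressed neuronal partner of axonal Kv1 channels, was at 63.8 and 65.4 CPM at E14.5 and at 151 and 131 CPM at P0. It was at 466, 498, 503 and 549 CPM at P12 and at 829.6, 877, 706, 629.6 and 598 CPM in the adult. The 4 stages did not overlap. Kcnab2 rose by 1.13 ± 0.25 from E14.5 to P0 (adjusted p = 0.00471) and by 1.91 ± 0.22 from P0 to P12 (adjusted p = 4.95e-05) on the log2 scale, and the step to the adult was 0.49 ± 0.16 (adjusted p = 0.0502).

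Kcnab1, the beta subunit that carries an inactivating N-terminal peptide, stayed low. Its plates ranged from 12.5 to 15.2 CPM at E14.5, from 19.9 to 21.2 CPM at P0, from 18.7 to 34.0 CPM at P12 and from 26.6 to 36.6 CPM in the adult. No step between neighbouring stages passed the test, with log2 differences of 0.71, 0.09 and 0.38 (adjusted p = 0.141, 0.889 and 0.228).

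In counts, 2 of the 5 genes were called from E14.5 to P0, where 27.8% of all tested genes were called, 3 from P0 to P12, where 18.1% were, and 1 from P12 to the adult, where 14.1% were. The 3 calls from P0 to P12 (Kcna1, Kcna2 and Kcnab2, all higher) held under each of 13 other settings run. The 2 earlier calls became 0 with thinned neurons and 1 without any single P0 or E14.5 plate. The count from P12 to the adult ranged from 0 to 4 between settings. There Kcna2 was called without P12 replicate 1 (0.91, adjusted p = 0.0181) or replicate 2 (0.78, adjusted p = 0.0473), Kcna1 without P12 replicate 1 (0.64, adjusted p = 0.0374), and Kcnab2 without P12 replicate 4 (0.59, adjusted p = 0.0418) or adult replicate 5 (0.51, adjusted p = 0.0361). Set against P0 directly, a comparison added after the values were seen in which 34.4% of genes were called, the adult had higher Kcna1 (log2 fold change 2.66 ± 0.28, adjusted p = 6.40e-06), Kcna2 (3.18 ± 0.35, adjusted p = 9.03e-06) and Kcnab2 (2.40 ± 0.22, adjusted p = 2.20e-06) and lower Kcna6 (-2.53 ± 0.38, adjusted p = 1.26e-04). Kcnab1 stood at 0.47 ± 0.26 in that comparison (adjusted p = 0.179).

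The P12 plates did not form 1 group. Replicates 1 and 2 held 12 and 13 kept neurons with medians of 61464.5 and 50417 UMIs, and replicates 3 and 4 held 67 and 62 neurons with medians of 26411 and 18852 UMIs. A comparison added after the values were seen found Kcna1 0.81 ± 0.18 higher on the log2 scale (adjusted p = 0.0111), Kcna2 0.91 ± 0.24 higher (adjusted p = 0.0292) and Kcna6 lower, with a log2 fold change of -1.38 ± 0.37 (adjusted p = 0.0303), on replicates 1 and 2. Thus 3 of 5 genes were called where 8.64% of all genes were. Kcnab1 (0.40 ± 0.31, adjusted p = 0.490) and Kcnab2 (-0.36 ± 0.20, adjusted p = 0.301) were not called. The neurons of replicates 1 and 2 all belonged to P12 clusters 2 and 3 and those of replicates 3 and 4 to clusters 1, 4 and 5. Satellite glia and Schwann cell genes summed to 524 and 475 CPM on replicates 1 and 2 (7 of 8 genes with a UMI, Pmp2 at 0) and to 166 and 235 CPM on replicates 3 and 4 (5 of 8). The cutaneous mechanoreceptor genes Maf, Ntrk2 and Ret summed to 196 and 126 CPM on the first pair and to 37.8 and 28.3 CPM on the second (3 of 3 with a UMI on each plate). The 5 proprioceptor markers summed to 4193, 4371, 4248 and 4076 CPM. The part of these markers in the differences of the Kv1 genes was not tested.

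Each pair gave another picture of the last step. With P12 replicates 1 and 2 alone, Kcnab2 was the only member called from P12 to the adult (0.67, adjusted p = 0.0457, where 4.92% of genes were called) and Kcna6 was at -0.51 (adjusted p = 0.451), while from P0 to P12 Kcna6 was then lower by a called difference (-2.02, adjusted p = 0.00311). With replicates 3 and 4 alone, 25.9% of genes were called from P12 to the adult and 3 members with them: Kcna1 at 0.95 (adjusted p = 0.00106), Kcna2 at 1.24 (adjusted p = 0.00146) and Kcna6 at -1.88 (adjusted p = 4.60e-04). The rise of Kcna1, Kcna2 and Kcnab2 from P0 to P12 was called with either pair, where 19.6% of genes were called with the first and 22.9% with the second. The timing of the later differences therefore rested on which P12 plates were taken.

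With these levels the makeup of the alpha subunit UMIs differed most between P0 and P12. Shares were computed from the UMIs of Kcna1, Kcna2 and Kcna6 summed over each plate and are given without a test. Kcna6 held 51.6% ± 1.00 (SD, n = 2 plates) of them at E14.5 and 55.6% ± 1.75 (n = 2) at P0, then 11.3% ± 8.17 (n = 4) at P12 and 2.90% ± 1.47 (n = 5) in the adult. Kcna2 held 16.1% at E14.5, 25.4% at P0, 54.7% ± 6.16 at P12 and 63.3% ± 3.98 in the adult. The share of Kcna1 was 32.3%, 19.0%, 34.0% and 33.8%. The E14.5 shares pool clusters that differed. Kcna6 held 73.3% ± 6.38 in cluster 1 and 67.2% ± 6.93 in cluster 2, but 18.2% ± 8.63 in cluster 3 (n = 2 plates each) and 16.7% on the 1 plate of cluster 4. Clusters 3 and 4 had a lower sum of proprioceptor markers and a higher sum of Maf, Ntrk2 and Ret. Kcna2 held 3.12% and 5.60% in clusters 1 and 2 against 36.9% and 50% in clusters 3 and 4. On the P12 plates Kcna6 held 4.78%, 3.98%, 16.2% and 20.3%, of which the first 2 lay within the adult range of 1.63% to 5.20% and the last 2 above it.

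Counted together, the 3 alpha genes had a summed level of 118 ± 0.730 CPM at E14.5 and 199 ± 12.2 CPM at P0, of 455 ± 158 CPM at P12 and 622 ± 89.5 CPM in the adult, and the 2 beta genes of 78.4 ± 0.741, 162 ± 14.6, 528 ± 28.7 and 759 ± 123 CPM at the same stages. Kcnab1 held 18.1% of beta UMIs at E14.5, 14.2% at P0, 4.65% at P12 and 4.19% in the adult. Per neuron, the alpha gene with the most UMIs was Kcna6 in 40 of 55 P0 neurons (72.7%), Kcna2 in 94 of 154 P12 neurons (61.0%) and Kcna2 in 191 of 208 adult neurons (91.8%). In no adult neuron was it Kcna6. At E14.5, where neurons held fewest UMIs, it was Kcna6 in 62 of 169, and 57 neurons had no alpha UMI at all.

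**Figure D2:**
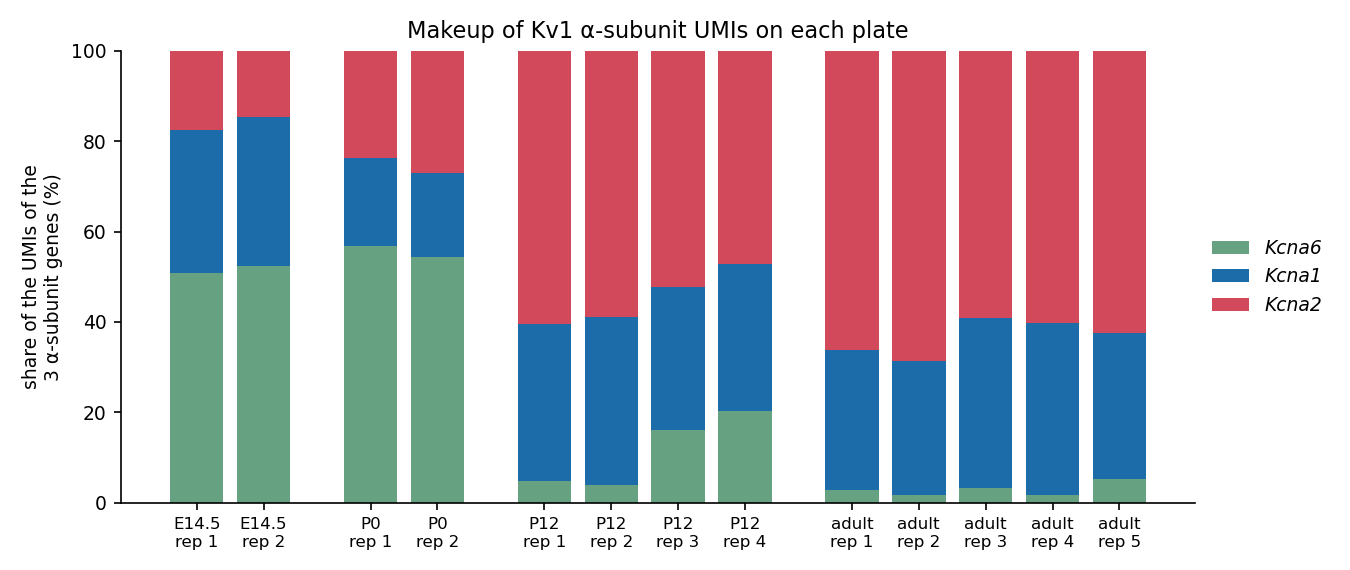
Share of each alpha subunit gene (Kcna1, Kcna2 and Kcna6) among their summed UMIs, in percent (vertical axis), as stacked bars for each plate of the 4 stages (horizontal axis). Kcna6 holds between 50.9% and 56.9% on each E14.5 and P0 plate and at most 5.20% on any adult plate, while Kcna2 holds at least 59.1% on every adult plate.

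Both Kcna1 and Kcna2 had a UMI in 95.2% of adult neurons, 79.9% of P12 neurons, 60% of P0 neurons and 7.10% of E14.5 neurons. These shares grow with depth. After each neuron was thinned to 7000 UMIs, which left out 18 E14.5 and 2 P12 neurons, Kcna1 was detected in 69.2% of adult neurons against 95.9% before thinning, Kcna2 in 91.0% against 100%, and Kcna6 in 11.8% against 42.3%, as means over plates. At P0 the thinned share was 62.4% for Kcna6, 30.5% for Kcna2 and 16.9% for Kcna1. Kcna6 therefore kept the highest share at P0 and the lowest of the alpha genes in the adult at equal depth. Across single adult neurons of a plate, log10 levels of Kcna1 and Kcna2 had a mean Pearson r of 0.403 over the 5 plates (208 neurons) and Kcna1 and Kcna6 one of -0.212. With thinned neurons the means over plates were 0.0845 (from -0.0078 to 0.169) and -0.103 (from -0.214 to 0.057). Both are descriptions over neurons that share plates.

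Among adult neurons, Kcna1 set clusters 1 and 5 apart from clusters 2 to 4. The study names cluster 1 as group Ia muscle spindle afferents, cluster 5 as group Ib Golgi tendon organ afferents and clusters 2 to 4 as presumed group II afferents. Group Ia and Ib fibers are the largest and fastest of the proprioceptors. Each cluster was summed per plate where it held at least 2 neurons, and the 18 sums entered 1 fit of 7370 genes. Clusters 2 and 4 gave sums on replicates 1 and 2 only, and cluster 3 on replicates 2 to 5. The cluster 3 sum of replicate 2 held 2 neurons and 65389 UMIs, fewer than any other of the 18.

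Kcna1 stood at 321, 315, 261, 270.3 and 271 CPM in cluster 1 on replicates 1 to 5 and at 229, 208, 265, 219 and 284 CPM in cluster 5. In cluster 2 it stood at 156 and 197 CPM, in cluster 4 at 102 and 122 CPM, and in cluster 3 at 60.0, 135, 120.3 and 127 CPM. Every sum of clusters 1 and 5 was above every sum of clusters 2 to 4. Clusters 1 and 5 together were higher by 0.96 ± 0.13 on the log2 scale (adjusted p = 1.28e-04). In this fit, which left the plate out, Kcna1 was the 1 member of 5 called, where 5.63% of genes were called. With the plate as a block 2 members were called, Kcna1 and Kcna2, where 10.6% of genes were. Kcna1 was called in each of 16 other settings, among them the fit without glial genes, which could hardly move it. The Kcna1 difference ran from 0.75 (thinned neurons) to 1.44 (replicates 1 and 2 alone, where the median gene stood at 0.12). Within replicates 3 to 5 alone it was 0.90 (adjusted p = 0.00145).

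Taken singly, cluster 1 exceeded clusters 2 to 4 in Kcna1 by 1.06 ± 0.15 (adjusted p = 9.93e-05, where 5.86% of genes were called) and cluster 5 exceeded them by 0.86 ± 0.16 (adjusted p = 0.00204, where 3.99% were). The call for cluster 5 was lost with thinned neurons (0.55, adjusted p = 0.398) and without adult replicate 1 (0.79, adjusted p = 0.0880). Between clusters 1 and 5 Kcna1 differed by 0.20 ± 0.16 (adjusted p = 0.698), and none of the 5 genes was called there without the plate as a block, in a comparison that called 4.76% of genes. With the block, where 9.66% were called, 1 was, Kcnab2, lower in cluster 1 (-0.27 ± 0.09, adjusted p = 0.0490). Within replicates 1 and 2 alone and within replicates 3 to 5 alone 0 members were called, where 3.27% and 4.08% of genes were. Without the block the number was 0 also at an unadjusted p below 0.05 and with DESeq2 (4.00% of genes). There Kcna2 was at 0.09 ± 0.19 (adjusted p = 0.944), Kcna6 at -0.65 ± 0.54 (adjusted p = 0.726), Kcnab1 at 0.51 ± 0.34 (adjusted p = 0.587) and Kcnab2 at -0.28 ± 0.15 (adjusted p = 0.467). Depth moved with Kcna1, since the median neuron held 59922 UMIs in cluster 1, 57694 in cluster 5, 31306 in cluster 2, 35599 in cluster 3 and 20138 in cluster 4. At 7000 UMIs per neuron Kcna1 stood at 283, 223, 174, 113 and 139 CPM in those 5 clusters in the same order. The 3 genes taken as markers of cutaneous mechanoreceptors (Maf, Ntrk2 and Ret) summed to 349 and 150 CPM in clusters 1 and 5 and to 139, 83.3 and 52.3 CPM in clusters 2, 3 and 4. Most of that was Maf in cluster 1, at 285 CPM, and Ntrk2 did not exceed 18.6 CPM in any cluster. The part of these genes in the difference was not tested. Glial genes summed to 429 and 437 CPM in clusters 1 and 5 and to between 272 and 696 CPM in the others. Leaving these genes out of the fit gave 0.96 again for Kcna1. That removes only their own counts and can hardly move Kcna1, so it says nothing on the part of glial transcripts, which was not tested.

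Kcna2 depended on the plates. Its levels in cluster 1 were 604, 672, 444, 431 and 458 CPM on replicates 1 to 5, and in cluster 5 they were 541, 607, 415, 429 and 437 CPM. Cluster 2 had 461 and 452 CPM, cluster 4 had 347 and 281 CPM, and cluster 3 had 571, 268, 244 and 337 CPM on replicates 2 to 5. The groups overlapped. Within clusters 1 and 5, replicates 1 and 2 were higher than replicates 3 to 5 by 0.53 ± 0.10 for Kcna2 (adjusted p = 9.98e-04) and by 0.39 ± 0.11 for Kcnab2 (adjusted p = 0.0163), which made 2 of 4 tested members called where 16.5% of genes were. Both calls were lost with thinned neurons, and that of Kcnab2 also without replicate 1 (adjusted p = 0.158) or replicate 2 (adjusted p = 0.0797). Kcna1 did not differ beyond its spread there (0.11 ± 0.10, adjusted p = 0.518), nor did Kcnab1 (0.41, adjusted p = 0.485).

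Without the plate in the fit, Kcna2 was 0.47 ± 0.16 higher in clusters 1 and 5 than in clusters 2 to 4 and was not called (adjusted p = 0.0930). With the plate as a block the difference was 0.64 ± 0.08 (adjusted p = 5.65e-06), in a fit that called 10.6% of genes. It was also called within replicates 1 and 2 (0.54, adjusted p = 0.0164, where 2.76% of genes were called) and within replicates 3 to 5 (0.58, adjusted p = 0.0224, where 2.73% were). The block gave Kcna2 differences of 0.69 for cluster 1 (adjusted p = 6.40e-06, where 12.2% of genes were called) and 0.60 for cluster 5 (adjusted p = 1.58e-04, where 8.11% were) against clusters 2 to 4, while the values without it were 0.51 (adjusted p = 0.110) and 0.42 (adjusted p = 0.244). Within replicates 1 and 2 alone and within replicates 3 to 5 alone, Kcna2 was called for cluster 1 (3.16% and 3.01% of genes). It was called in neither for cluster 5 (2.42% and 3.75% of genes). With thinned neurons Kcna2 was at 0.30 (adjusted p = 0.470).

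Kcna6 was highest in cluster 4, where it stood at 58.6 and 76.0 CPM on replicates 1 and 2 (37 UMIs in 28 neurons). In cluster 1 it stood at 2.73, 5.23, 6.28, 4.40 and 19.5 CPM, in cluster 2 at 0 and 14.3 CPM, in cluster 3 at 28.7, 15.0, 12.8 and 20.1 CPM, and in cluster 5 at 19.3, 3.03, 2.42, 6.63 and 13.2 CPM. Both cluster 4 sums lay above every other sum. Across the 5 clusters 9.67% of genes showed some difference, and 2 members did: Kcna1 (adjusted p = 2.60e-04) and Kcna6 (adjusted p = 6.50e-04). Kcna2 joined them with the plate as a block (adjusted p = 2.56e-05, where 16.0% of genes were called), from an adjusted p of 0.160 without it. At 7000 UMIs per neuron Kcna6 was too sparse to be tested, and the share of neurons with a Kcna6 UMI was then 35.4% for cluster 4 and at most 6.35% for each of clusters 1, 2, 3 and 5.

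The direct comparison of clusters 4 and 2, which share replicates 1 and 2, called 0.136% of genes and no member, where 2 were below an unadjusted p of 0.05 and DESeq2 called 0 (0.547% of genes). With the plate as a block 0 members were called too (0.719% of genes), and 4 of 5 were below an unadjusted p of 0.05. Kcna6 there had 37 UMIs in cluster 4 and 3 in cluster 2, a ratio of 9.56 per UMI sequenced with a 95% exact interval for counting error of 3.03 to 48.5, and an adjusted p of 0.141 between plates. The differences were -0.65 ± 0.29 for Kcna1 (adjusted p = 0.641), -0.44 ± 0.33 for Kcna2 (adjusted p = 0.888), -0.02 ± 0.56 for Kcnab1 (adjusted p = 1) and 0.33 ± 0.25 for Kcnab2 (adjusted p = 0.900). Clusters 1 and 5 against clusters 2 to 4 gave -1.33 ± 0.46 for Kcna6 (adjusted p = 0.107), a direction that turned without adult replicate 2 (0.40), and cluster 1 against clusters 2 to 4 gave -1.65 ± 0.53 (adjusted p = 0.0742), which was called without adult replicate 5 (-1.91, adjusted p = 0.0448). Cluster 5 against clusters 2 to 4 gave a Kcna6 fold of 0.499 (adjusted p = 0.354), whose direction also turned without adult replicate 2, at a log2 difference of 0.82. Of all alpha UMIs, Kcna6 made up 13.5% ± 3.67 in cluster 4 (n = 2 plates) and between 0.667% and 2.62% in the other clusters. Cluster 4 held the shallowest neurons, so its thinned level of 58.5 ± 29.5 CPM is given beside its full level of 67.3 ± 12.3 CPM.

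**Figure D3:**
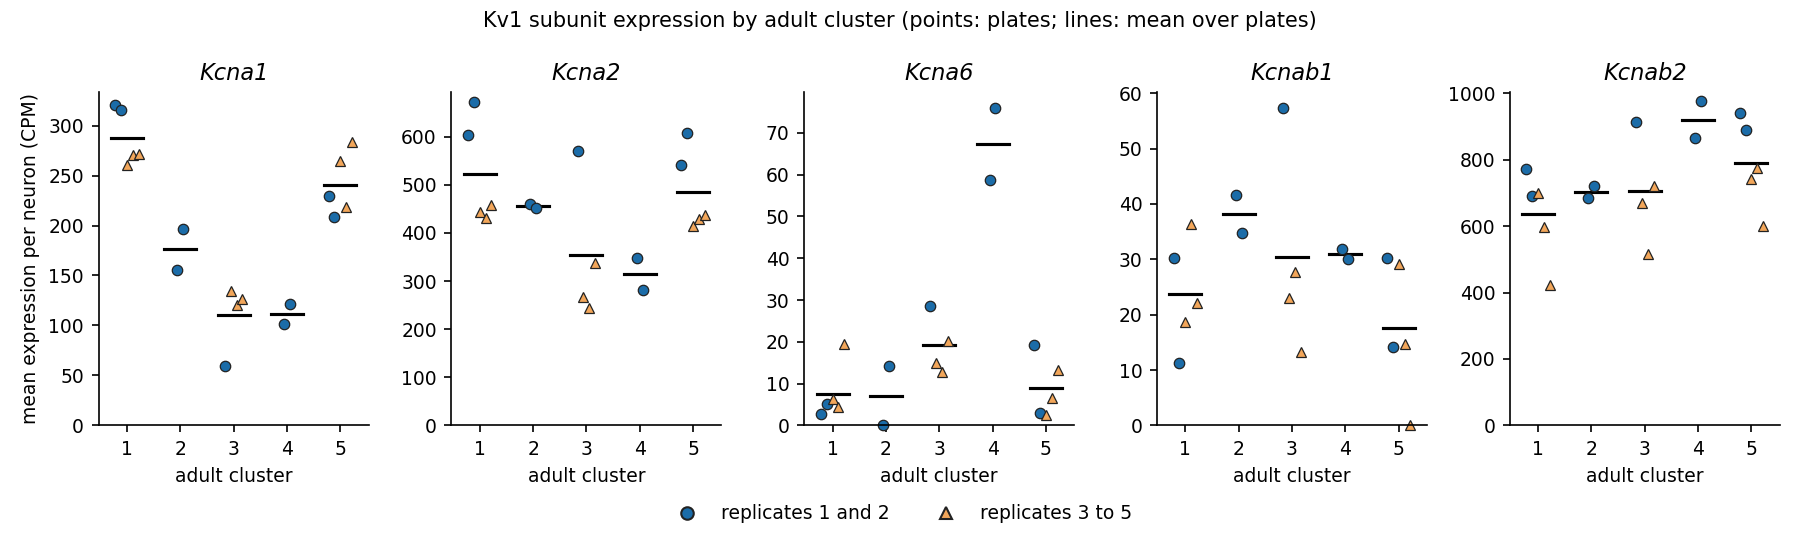
Mean level of each Kv1 gene in CPM (vertical axis) in the 5 adult clusters (horizontal axis), with 1 point for each plate that held at least 2 neurons of the cluster (circles for replicates 1 and 2, triangles for replicates 3 to 5) and lines at the mean over plates. Kcna1 lies at 208 CPM or more in clusters 1 and 5 and at 197 CPM or less in clusters 2 to 4, and Kcna6 is highest in cluster 4.

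The beta subunits did not pass the test between adult clusters without the plate as a block. Kcnab2 ranged from 423 to 771 CPM in cluster 1, from 601 to 941 CPM in cluster 5 and from 516 to 976 CPM in clusters 2 to 4, with a log2 difference of -0.12 ± 0.12 between the groups (adjusted p = 0.665). Kcnab1 ranged from 0 to 57.4 CPM over all 18 sums and stood at -0.44 ± 0.27 (adjusted p = 0.414). Against clusters 2 to 4, cluster 1 gave -0.19 ± 0.30 for Kcnab1 (adjusted p = 0.823) and -0.26 ± 0.14 for Kcnab2 (adjusted p = 0.363), and cluster 5 gave -0.70 ± 0.34 (adjusted p = 0.309) and 0.02 ± 0.14 (adjusted p = 0.984). Across the 5 clusters the adjusted p was 0.472 for Kcnab1 and 0.299 for Kcnab2. Set beside each other, alpha subunits summed to 817 ± 133 CPM and beta subunits to 660 ± 134 CPM in cluster 1, while in cluster 4 alpha subunits summed to 493 ± 20.2 CPM and beta subunits to 951 ± 77.3 CPM.

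At P12, Kcna1, Kcna2 and Kcna6 again differed between clusters. These clusters carry their own numbers, which do not stand for the adult clusters of the same number, and clusters 2 and 5 held 8 neurons each where clusters 1, 3 and 4 held 63, 17 and 58. Kcna1 was at 319.8 and 299 CPM in cluster 2 and 239 and 360.1 CPM in cluster 5, at 120.3 and 171 CPM in cluster 3, at 90.5 and 119.9 CPM in cluster 4 and at 71.8 and 62.2 CPM in cluster 1. Kcna2 was at 519.5 and 319 CPM in cluster 2, at 262 and 339 CPM in cluster 3, at 301 and 133 CPM in cluster 5, at 175 and 185 CPM in cluster 4 and at 111 and 121 CPM in cluster 1. Kcna6 ran the other way, at 85.6 and 97.1 CPM in cluster 1, 65.5 and 45.3 CPM in cluster 4, 51.9 and 46.6 CPM in cluster 3, 14.1 and 6.61 CPM in cluster 2 and 10.3 and 0 CPM in cluster 5. Clusters 2 and 5 lay above the other 3 in Kcna1 and below them in Kcna6, with no overlap between plates.

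Across the 5 clusters, 31.5% of genes differed, and 3 of 5 members did: Kcna1 (adjusted p = 6.39e-07), Kcna2 (adjusted p = 7.63e-05) and Kcna6 (adjusted p = 2.06e-05). Kcnab1 (adjusted p = 0.193) and Kcnab2 (adjusted p = 0.229) did not pass. Clusters 2 and 3 lay only on replicates 1 and 2 and clusters 1, 4 and 5 only on replicates 3 and 4, so between these sets the cluster and the plate cannot be told apart. Within replicates 3 and 4 alone, where 9.58% of genes differed, the same 3 genes were called (adjusted p = 9.92e-06 for Kcna1, 0.0103 for Kcna2 and 2.38e-04 for Kcna6). Within replicates 1 and 2, cluster 3 had less Kcna1 than cluster 2 (-1.08 ± 0.23, adjusted p = 0.00653), the 1 member called in a comparison, added after the values were seen, that called 3.91% of genes. There Kcna2 was at -0.50 ± 0.23 (adjusted p = 0.298) and Kcna6 at 1.56 ± 0.55 (adjusted p = 0.139), with Kcnab1 at -0.99 (adjusted p = 0.350) and Kcnab2 at -0.25 (adjusted p = 0.550). Between clusters 1 and 4, 0.966% of genes and none of the 5 members were called, with 3 members below an unadjusted p of 0.05 and 0 called by DESeq2 (0.601% of genes). Their Kcna1 difference was -0.75 ± 0.26 (adjusted p = 0.249) and that of Kcna6 was 0.85 ± 0.29 (adjusted p = 0.224), each with an adjusted p of 0.0506 with the plate as a block, where 3.00% of genes differed. Kcna2 was at -0.62 ± 0.25 (adjusted p = 0.373), Kcnab1 at -0.07 ± 0.45 (adjusted p = 0.992) and Kcnab2 at -0.00053 ± 0.16 (adjusted p = 1.00).

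Depth moved with these levels as well. The median neuron held 74067 UMIs in P12 cluster 2, 49217 in cluster 5, 46967 in cluster 3, 29649 in cluster 4 and 16185 in cluster 1, the order of the mean Kcna1 levels (309, 300, 146, 105 and 67.0 CPM). At 7000 UMIs per neuron the Kcna1 levels were 233, 226, 147, 89.2 and 74.7 CPM, and Kcna1 (adjusted p = 0.0442) and Kcna2 (adjusted p = 5.55e-05) were still called across the clusters, while Kcna6 was too sparse to be tested. The summed level of Maf, Ntrk2 and Ret was 347 and 228 CPM in clusters 2 and 5, 78.4 CPM in cluster 3, 42.0 CPM in cluster 4 and 5.30 CPM in cluster 1, in the same order as Kcna1, and its part was not tested. In single P12 neurons of a plate, Kcna1 and Kcna6 had a mean Pearson r of -0.334 over 4 plates (154 neurons) and one of 0.180 (from -0.0951 to 0.383) over the same plates with 152 neurons thinned to 7000 UMIs.

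**Figure D4:**
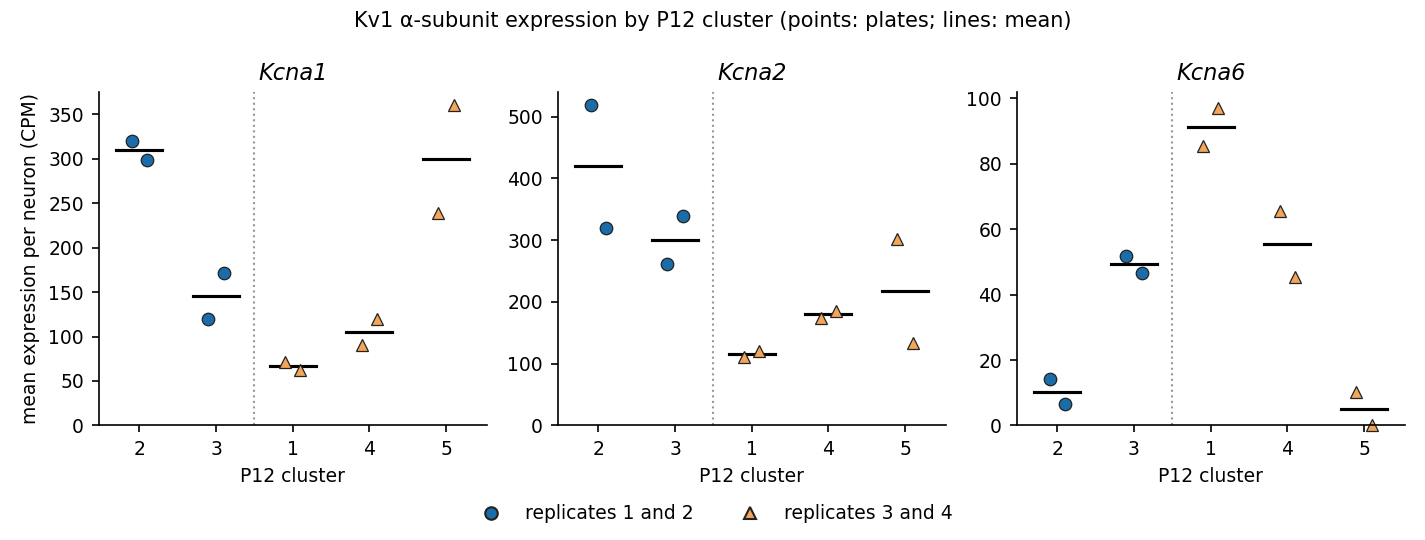
Mean level of each Kv1 alpha subunit gene in CPM (vertical axis) in the 5 P12 clusters (horizontal axis), with 1 point for each plate and lines at the mean. Clusters 2 and 3 come from replicates 1 and 2 and clusters 1, 4 and 5 from replicates 3 and 4. Kcna1 is highest and Kcna6 lowest in clusters 2 and 5.

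At P0 no Kv1 gene was called between clusters. Kcna6 was at 105 and 122 CPM in cluster 1, 97.8 and 79.2 CPM in cluster 2 and 151 and 130.0 CPM in cluster 3, and it was the alpha gene with the highest level on each of these 6 sums. Cluster 2 against clusters 1 and 3 called none of the 4 tested members and 1.21% of all genes. An unadjusted p below 0.05 was reached by 2 members, and DESeq2 called 0 (0.613% of genes). The Kcnab2 levels were 179.7 and 201 CPM in cluster 2, above the 72.2 to 143 CPM of the other clusters, yet the difference of 0.60 ± 0.21 was not called (adjusted p = 0.273). Kcna6 stood at -0.52 ± 0.24 (adjusted p = 0.447), Kcna1 at -0.08 ± 0.46 (adjusted p = 0.982) and Kcna2 at -0.17 ± 0.31 (adjusted p = 0.905). Cluster 3, which had the highest Kcna2 (79.0 and 108 CPM), also carried 3238 CPM of glial genes against 101 and 80.5 CPM in clusters 1 and 2. The part of these genes was not tested.

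At E14.5 most Kcna2 UMIs lay in clusters 3 and 4, which had a lower sum of proprioceptor markers and more Maf. The study reports that these clusters nearly lack Etv1 and parvalbumin. It proposes that they are non-proprioceptive neurons, Merkel cell afferents among them. Levels of single proprioceptor markers by cluster are not given here, so the lower sum need not hold for each of them. Kcna2 was at 4.39 and 0 CPM in cluster 1 and 8.01 and 4.75 CPM in cluster 2, with 1 UMI in 41 neurons and 6 in 88, and at 50.5 and 52.0 CPM in cluster 3 and 85.3 CPM in cluster 4, which had 1 usable plate. Kcna6 ran the other way, at 86.0 and 102 CPM in cluster 1, 73.8 and 66.7 CPM in cluster 2, 27.4 and 19.7 CPM in cluster 3 and 19.9 CPM in cluster 4. Neither gene overlapped between the 2 pairs of clusters. Clusters 3 and 4 summed to 713 and 695 CPM of proprioceptor markers, against 1844 and 2054 CPM in clusters 1 and 2, and to 401 and 217 CPM of Maf, Ntrk2 and Ret, against 26.2 and 38.0 CPM. Nearly all of the latter was Maf, at 398 CPM in cluster 3 and 217 CPM in cluster 4. Clusters 3 and 4 against clusters 1 and 2 gave 3.64 ± 0.94 for Kcna2 (adjusted p = 0.0705) and -1.75 ± 0.55 for Kcna6 (adjusted p = 0.187), where the median gene stood at -0.11 and 1.18% of genes were called. Kcna1 stood at 0.84 ± 0.70 (adjusted p = 0.663) and Kcnab2 at 0.42 ± 0.43 (adjusted p = 0.743). Of 4 tested members, 0 were called there in the fit without the plate or by DESeq2 (0.664% of genes), and 2 were below an unadjusted p of 0.05. With the plate as a block Kcna2 was called (3.70, adjusted p = 0.0460, where 1.97% of genes were).

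**Figure D5:**
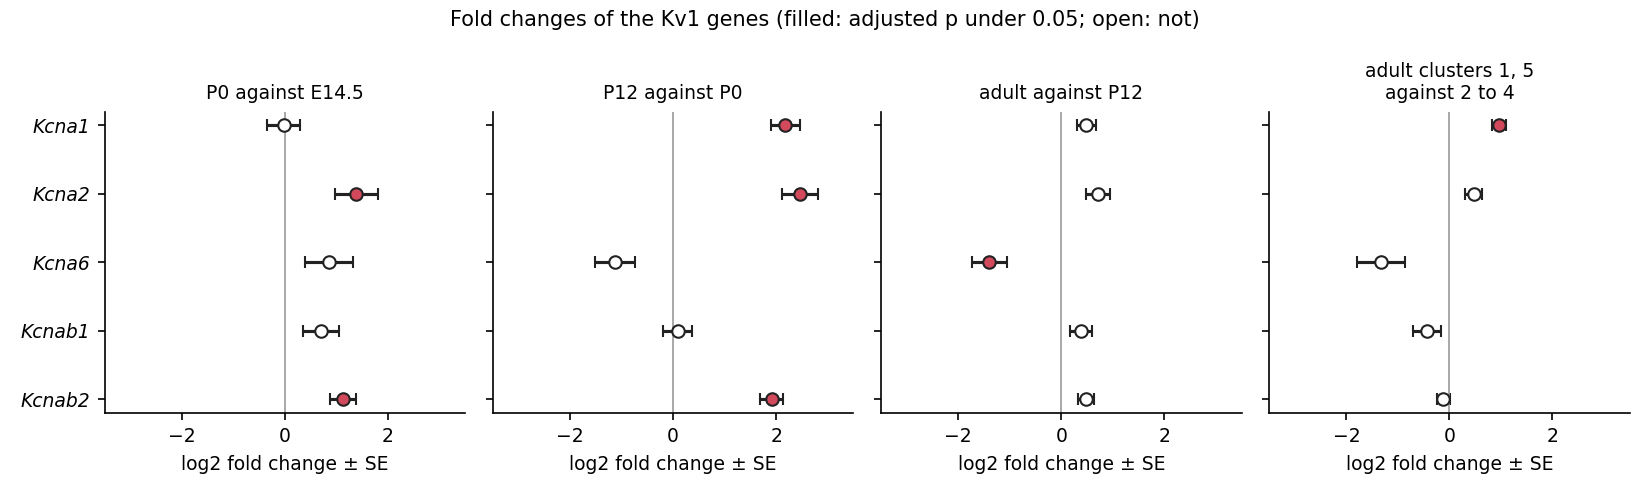
Log2 fold change with its standard error (horizontal axis) of each Kv1 gene (vertical axis), with 1 panel for each comparison between neighbouring stages and 1 for adult clusters 1 and 5 against clusters 2 to 4, and with filled points where the adjusted p was below 0.05. Kcna1, Kcna2 and Kcnab2 lie at 1.91 or more from P0 to P12. Kcna1 is the 1 filled point of the 5 genes between adult clusters 1 and 5 and clusters 2 to 4, in the fit without the plate.

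The other 6 genes of the family were close to absent from the counts, and none was frequent enough to be tested in any fit. Kcna3 had no UMI in any of the 586 kept neurons, which allows a share of up to 0.512% of neurons with a UMI, for counting error only. Kcna4, the alpha subunit of rapidly inactivating Kv1 channels, had between 1 and 5 UMIs per stage. Kcna5 had 2 UMIs at P0, Kcna7 had 3 at P12, and Kcna10 had 6 at P12 and 5 in the adult. The third beta subunit gene, Kcnab3, had 0, 12, 20 and 24 UMIs from E14.5 to the adult, where Kcnab2 had 122, 335, 2399 and 6654.

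Of 13 genes for partners of axonal Kv1 channels, 12 were tested between stages. From E14.5 to P0, 5 of them were called, where 27.8% of all genes were, and the median of the 12 was 0.59 on the log2 scale beside 0.01 over all genes. Lgi2 (2.00 ± 0.31, adjusted p = 4.42e-04) and Lgi3 (3.90 ± 0.27, adjusted p = 4.84e-07), secreted ligands of the Adam receptors that sit with Kv1 channels, rose with Lgi1 (2.95) and Epb41l3 (1.08), a cytoskeletal adaptor of the paranodal region, and Cntn2 fell by 0.74. From P0 to P12, 5 rose and 1 fell, so 6 of 12 were called where 18.1% of all genes were, with a median of 0.35 beside 0.02. Cntnap2, the adhesion molecule needed to hold Kv1 channels beside the node, rose by 1.03 ± 0.19 (adjusted p = 0.00164), from 287 ± 23.6 to 591 ± 46.1 CPM. Dlg2 (1.61), the scaffold that binds Kv1 alpha subunits, Adam23 (1.92), Epb41l3 (0.85) and Lgi3 (1.27) rose too, and Lgi1 fell by 2.13. From P12 to the adult, over all P12 plates, Lgi1 (2.38 ± 0.34, adjusted p = 5.52e-04) and the scaffold gene Dlg4 (1.81 ± 0.42, adjusted p = 0.0114) were called, both higher, so 2 of 12 where 14.1% of all genes were. That number depended on the P12 plates. With replicates 1 and 2 alone it was 1 of 11, Lgi1 (2.60, where 4.92% of all genes were called), and with replicates 3 and 4 alone it was 5 of 12 (25.9% of all genes), with Lgi1 (2.28), Dlg4 (2.58), Dlg1 (2.21) and Lgi2 (0.89) higher and Cntnap2 lower (-0.60). From P0 to the adult, 5 of 12 were called, all higher, where 34.4% of all genes were: Cntnap2 (0.60), Dlg2 (1.97), Adam23 (2.28), Epb41l3 (1.27) and Lgi3 (1.34). Lgi4 had 1 UMI in all kept neurons.

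Among adult clusters, 1 of 11 tested partners was called between clusters 1 and 5 and clusters 2 to 4, where 5.63% of all genes were. It was Cntnap2 (-0.49 ± 0.10, adjusted p = 0.00694), whose sign was opposite to that of Kcna1, and its call was lost within replicates 1 and 2 (-0.45, adjusted p = 0.0958) and within replicates 3 to 5 (-0.30, adjusted p = 0.277). Cntnap2 ranged from 196 to 277 CPM over the 5 plates of cluster 1, from 414 to 597 CPM in cluster 5 and from 355 to 651 CPM over clusters 2 to 4, so cluster 1 stood apart without overlap. Cluster 1 was lower in Cntnap2 than cluster 5 by a log2 difference of -1.13 ± 0.14 (adjusted p = 1.29e-05), where Kcna1 differed by 0.20, and lower than clusters 2 to 4 by -1.06 ± 0.13 (adjusted p = 1.55e-05), also within replicates 1 and 2 (-0.97, adjusted p = 0.00136) and within replicates 3 to 5 (-0.90, adjusted p = 0.00291), while cluster 5 differed from clusters 2 to 4 by 0.07 ± 0.12 (adjusted p = 0.872). At P12 the 2 clusters with most Kcna1 had least Cntnap2, 321 ± 14.7 CPM in cluster 2 and 244 ± 5.16 CPM in cluster 5 against 584 to 701 CPM in the others. There 6 of 9 tested partners differed between clusters, where 31.5% of all genes did: Cntnap2 (adjusted p = 2.95e-07), Adam23 (5.77e-06), Adam22 (0.00177), Lgi2 (0.00180), Adam11 (0.00598) and Lgi3 (0.00945). Within replicates 3 and 4 alone 2 of 8 did, Cntnap2 and Adam23, where 9.58% of all genes did. Between P12 clusters 3 and 2, 3 of 9 were called (3.91% of all genes): Cntnap2 (1.08) and Adam11 (1.55) were higher in cluster 3 and Lgi3 (-0.66) lower. At P0, Cntnap2 was the 1 of 8 called, 0.66 ± 0.15 higher in cluster 2 than in clusters 1 and 3 (adjusted p = 0.0445, where 1.21% of genes were called). In adult cluster 5 against clusters 2 to 4, Dlg2 was called lower (-1.03 ± 0.27, adjusted p = 0.0485, 1 of 11 partners where 3.99% of all genes were called). That call was lost with the plate as a block (-0.95, adjusted p = 0.0537) and within replicates 1 and 2 (-1.24, adjusted p = 0.191) or replicates 3 to 5 alone (-1.09, adjusted p = 0.155). With the plate as a block 4 of 11 partners were called between clusters 1 and 5 and clusters 2 to 4, where 10.6% of all genes were: Cntnap2 (-0.53) lower and Adam22 (0.48), Adam23 (0.67) and Lgi2 (0.60) higher. Adam23 (0.81) and Lgi2 (1.33) were also called higher within replicates 1 and 2 alone, 2 of 11 where 2.76% of all genes were, and Adam23 (0.66) within replicates 3 to 5 alone, 1 of 10 where 2.73% were. For cluster 1 against clusters 2 to 4 the block called 5 of 11 (12.2% of all genes), with Cntnap2 (-1.09) and Adam11 (-0.72) lower and Adam22 (0.48), Adam23 (0.76) and Lgi2 (0.68) higher. Within replicates 1 and 2 alone 3 of 11 were called for cluster 1, Cntnap2 lower and 2 higher (3.16% of all genes). Within replicates 3 to 5 alone it was 1 of 10, Cntnap2 (3.01%), so the higher calls were lost there. For cluster 5 the block called 1 of 11, Adam23 (0.59 higher, 8.11% of all genes), and between clusters 1 and 5 it called Cntnap2 (-1.13), Cntn2 (-0.69) and Adam11 (-0.69), all lower in cluster 1 (9.66% of all genes). Between clusters 1 and 5, 1 of 11 was called within replicates 1 and 2 alone (3.27% of all genes). Within replicates 3 to 5 alone 1 of 10 was (4.08%), so most of these calls were lost in each set of plates. Between adult replicates 1 and 2 and replicates 3 to 5, within clusters 1 and 5, 3 of 11 were called, all higher on the first set, where 16.5% of all genes were called: Adam22 (0.85), Adam23 (1.08) and Epb41l3 (0.44).

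Over the 18 adult sums of cluster and plate, each member was set against all tested genes by the Pearson r of log2 CPM, as a description, since sums of 1 plate share their library. Kcna1 was most like Pcdh9 (r = 0.928), a protocadherin, Kcnq3 (0.920), a subunit of the M-type potassium channel, and Chst15 (0.902). Kcna2 was most like Eif5a2 (0.918), Lpin1 (0.903) and Rtn3 (0.867), and Kcna6 most like Cartpt (0.820), Platr14 (0.788) and Vamp2 (0.787). The 3 closest genes to Kcnab1 were Spop (0.925), Ppp3cc (0.925) and Itsn2 (0.866), and those to Kcnab2 were Mfap1a (0.870), Inpp5f (0.859) and Txnl4b (0.854). These genes were picked as the highest among all tested genes, so fixed pairs cannot be ranked against them. Between members r ran from -0.454 (Kcna1 and Kcna6) to 0.415 (Kcna1 and Kcna2), with -0.277 for Kcna1 and Kcnab2.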

How the data were processed

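Single sorted neurons were sequenced by a plate method with UMIs. The authors aligned reads with STAR to mm10 (GRCm38) and deposited raw UMI counts per gene and well for each of 13 plates, together with a table of kept neurons and their clusters, which dropped wells with fewer than 2000 genes or with glial transcripts. The strand setting of counting is not given in the sources used here. A pooled filtered table repeats the same wells and was not used. Wells of the annotation were taken from the plate counts, converted to CPM of the well's own total, and averaged per plate. Kept UMIs per plate ranged from 680212 to 2387288, and intervals and limits cover counting error only. Stage groups came from the labels, with plates as replicates.

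UMI counts were summed per plate, or per cluster and plate with at least 2 neurons, filtered (filterByExpr), scaled by TMM and tested in edgeR 4.0.16 (R 4.3.3) by the quasi-likelihood F-test, called at an adjusted p below 0.05 (Benjamini-Hochberg over all tested genes). Alternatives were DESeq2 1.42.0, its size factors, no filter, neurons thinned to 7000 UMIs, other least numbers of neurons (1 or 4), each plate left out, subsets of plates, glial genes left out, and the plate as a block. Neurons of clusters 1 and 5 came from the same physical plates, and deviations of the 2 clusters correlated within every plate (r from 0.190 to 0.508), so plates pair these sums, although on replicate 3 the same-plate r of 0.190 was below the highest r with another plate, 0.218, and on replicate 1 both were close (0.437 and 0.431). The fitting step was tested on simulated data. Of 2-fold changes it recovered 12% from E14.5 to P0, 11% from P0 to P12 and 42% from P12 to the adult. Between adult clusters 1 and 5 and clusters 2 to 4 it recovered 61%. False calls were 2.86%, 4.94%, 5.93% and 7.23% in the same order. A step that was not called therefore does not show that a level stayed the same. Text names the members tested in each comparison, partners called in the comparisons described (not in every subset of plates), and for each member the 3 genes of highest correlation. Members and lists were chosen with earlier results of these data known. Python 3.11.15, pandas 2.3.3 and matplotlib 3.10.9 were used.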

Additional observations from a re-analysis of the deposited data

Results flagged for a closer look

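In groups of 4 or 5 plates, the highest and the lowest plate were compared with the others by Dixon's ratio, and 2 of 45 groups were past the 95% critical value, where chance gives about 1 in 20. Both concern Kcna6 in adult cluster 1 on replicate 5, a sum of 3 neurons. Its mean level was 19.5 CPM, with the next plate at 6.28 CPM (gap over range 0.788, critical value 0.710). Its share of alpha subunit UMIs was 2.54%, with the next plate at 0.766% (gap over range 0.825).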

How the results depend on the processing

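Of the 5 Kv1 genes, the number called between adult clusters 1 and 5 and clusters 2 to 4 went from 1 (5.63% of all tested genes called) to 2 with no filter (2.60%), sums of at least 4 neurons (5.56%), the plate as a block (10.6%), replicates 1 and 2 alone (2.76%), replicates 3 to 5 alone (2.73%), or cluster 3 left out on replicates 1 and 2 (6.23%). For cluster 1 it went from 1 (5.86%) to 2 with no filter (2.73%), the block (12.2%), replicates 1 and 2 (3.16%) or replicates 3 to 5 alone (3.01%), to 3 with sums of at least 4 neurons (6.42%), and ranged from 1 to 2 without 1 plate (2.21% to 5.32%). For cluster 5 it went from 1 (3.99%) to 0 with thinned neurons (2.02%), to 2 with the block (8.11%) and ranged from 0 to 1 without 1 plate (1.51% to 3.38%). Between clusters 1 and 5 the block gave 1 (9.66%) instead of 0 (4.76%), between clusters 4 and 2 no filter gave 1 (0.303%) instead of 0 (0.136%), and across all clusters thinning gave 1 (8.38%) and the block 3 (16.0%) instead of 2 (9.67%). Between plate sets the count of 2 (16.5%) went to 0 when thinned (12.7%) and to between 1 and 2 without 1 plate (8.83% to 16.3%). At E14.5 no filter (0.556%), sums of at least 1 neuron (2.29%) and the block (1.97%) each gave 1 instead of 0 (1.18%). From E14.5 to P0 the count of 2 (27.8%) went to 0 when thinned (23.2%) and to 1 without any 1 plate (11.6% to 15.3%). From P12 to the adult the count of 1 (14.1%) went to 2 with DESeq2 (13.8%), no filter (8.87%), thinned neurons (11.4%) or adult clusters 1 to 5 alone (13.9%), to 3 with P12 replicates 3 and 4 (25.9%) or adult replicates 1 and 2 alone (17.0%), to 4 with all wells of at least 2000 genes (15.6%), and ranged from 0 to 3 without 1 plate (6.88% to 16.5%). Beside the calls named here for the block, it changed no other call of a member.

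Directions turned only where a member was not called. Kcnab2 in clusters 1 and 5 against 2 to 4 became 0.0035 with the block, 0.052 within replicates 1 and 2 and 0.0095 within replicates 3 to 5, and in cluster 5 it became -0.016 when thinned. Kcnab1 in cluster 1 against 2 to 4 became 0.23 within replicates 3 to 5. Kcnab2 in P12 cluster 1 against cluster 4 became 0.016 with DESeq2, 0.019 with its size factors and 0.048 when thinned. Kcna1 from E14.5 to P0 became 0.052 with no filter and 0.37 with E14.5 clusters 1 and 2 alone. Kcnab1 from P0 to P12 became -0.48 when thinned and -0.10 with P12 replicates 3 and 4 alone. Without 1 plate, Kcna6 ranged from -1.71 to 0.40 for clusters 1 and 5 against 2 to 4, from -1.74 to 0.82 for cluster 5 against 2 to 4 and from -0.84 to 0.062 for cluster 1 against cluster 5. Kcnab2 ranged from -0.061 to 0.089 for cluster 5 against 2 to 4 and from -0.15 to 0.16 for P12 cluster 1 against cluster 4. Kcnab1 ranged from -0.044 to 0.059 for cluster 4 against cluster 2, from -0.10 to 0.064 for P12 cluster 1 against cluster 4 and from -0.11 to 0.18 from P0 to P12, and Kcna1 from -0.068 to 0.071 from E14.5 to P0. The cause was not tested.

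Over all genes, thinning lowered the number called from 415 to 61 between adult clusters 1 and 5 and clusters 2 to 4, from 713 to 178 across adult clusters, from 1954 to 471 across P12 clusters, from 3314 to 1538 from E14.5 to P0, from 2162 to 661 from P0 to P12 and from 1687 to 755 from P12 to the adult. The block raised the first to 781. Without 1 plate these counts ranged from 130 to 334, 306 to 548, 1056 to 2046, 1455 to 1964, 884 to 2191 and 787 to 1960. DESeq2 called 1190 across P12 clusters and 797 instead of 1389 between adult plate sets. With P12 replicates 1 and 2 alone 529 genes were called from P12 to the adult, and with replicates 3 and 4 alone 3070. No filter gave 1543 across adult clusters. P0 and E14.5 cluster comparisons without 1 plate could not be fitted, since no residual degrees of freedom were left. Depth limits Kcna6 and Kcnab1 most, with 159 and 291 UMIs in all adult neurons.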

Other observations

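The annotation set 42 adult neurons apart from the 5 clusters, and the labels give no identity for them. On all 5 plates their Kcnab1 level was 53.2 to 63.8 CPM (58.2 ± 3.98, SD, n = 5), while the clustered neurons ranged from 0 to 57.4 CPM over 18 sums. Their Kcna6 level was 53.7 ± 25.4 CPM and their Kcna1, Kcna2 and Kcnab2 levels were 173 ± 39.6, 363 ± 87.6 and 820 ± 242 CPM. Proprioceptor markers summed to 2490 CPM in them and glial genes to 428 CPM. No test was run on these neurons.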
